A study of Homo sapiens with 12 samples.

Results

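The genes examined here encode 9 enzymes that make or use glutamine, glutamate, asparagine, arginine and proline: GLS2, GLUL, GLUD1, GOT1, GOT2, ASNS, ASS1, ASL and PYCR1. They were chosen by name among the 58735 genes counted, and all 9 passed the filter on low counts that left 16646 genes. RNA-seq was performed in C4.2B, a castration-resistant human prostate cancer line, in 4 arms of 3 libraries each (replicates A, B and C). All arms received medium with 10% charcoal-stripped FBS on day 0 and were collected 24 hours later. DMSO cells received vehicle throughout. AKTi cells received the AKT inhibitor ipatasertib at 0.25 μM from day 0, EZH2i cells received the EZH2 inhibitor tazemetostat at 1 μM for 6 days beforehand and from day 0, and combination cells received both agents on these schedules. The plates came from 1 cell line. The authors describe triplicate plates seeded after the pretreatment, and no source used here says that the replicates came from separate cultures. The p-values therefore measure the spread between these libraries, which may be technical.

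Glutamine carries nitrogen into cells on its side-chain amide. Glutaminases such as GLS2 release that amide to give glutamate, and glutamine synthetase (GLUL) puts it back. Glutamate gives up its amino group to become 2-oxoglutarate, a TCA cycle intermediate, either through glutamate dehydrogenase (GLUD1) or through transaminases such as GOT1 in the cytosol and GOT2 in mitochondria, which exchange it with aspartate. Aspartate in turn feeds asparagine (ASNS) and, through argininosuccinate (ASS1, then ASL), arginine, whereas the carbon skeleton of glutamate can be reduced to proline, with PYCR1 catalyzing the last step.

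Each library held 14133755 to 22276417 counts. All 9 markers of prostate luminal cells were detected in every library. Of 10 markers of other cell types, KRT5 (basal epithelium) and CD3E (T cells) were at 0 throughout, COL1A1 (fibroblast, 59 to 383 counts) and VWF (endothelium, 40 to 128 counts) were detected in every library, and the other 6 reached at most 20 counts. The summed luminal markers, several of which are androgen receptor targets, ranged over 3598–3740 CPM (counts scaled to library total) in DMSO, 5867–5959 with AKTi, 6862–7114 with EZH2i and 9289–9426 with both. The 10 other markers summed to 6.2–9.56 CPM in DMSO, 8.07–9.58 with AKTi, 22.4–25.8 with EZH2i and 17.4–21.4 with both. The part of either shift in the results below was not tested. Expression here is a share of each library's RNA, so less RNA per cell and fewer cells that express a gene cannot be told apart.

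The combination changed these enzymes in both directions. With the edgeR quasi-likelihood test at a Benjamini-Hochberg adjusted p threshold of 0.05, GLUL, ASNS and ASS1 rose against DMSO, GLS2, GOT1, GOT2, ASL and PYCR1 fell, and GLUD1 was not called. These 8 of 9 calls stand beside 73.2% of all genes tested (38.0% higher and 35.2% lower), so the number of calls is not particular to these enzymes. AKTi alone raised 3 (GLUL, GLUD1 and ASS1) and lowered 2 (GOT1 and GOT2), beside 42.5% of all genes called (20.6% higher and 21.9% lower). EZH2i alone raised 2 (GLUL and ASS1) and lowered 6 (GLS2, GLUD1, GOT1, GOT2, ASNS and PYCR1), beside 64.1% of all genes (32.6% higher and 31.5% lower). The median log2 fold change of the 9 was -0.03 with AKTi, -0.63 with EZH2i and -0.48 in the combination, against 0.01, 0.03 and 0.06 over all genes.

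**Figure D1:**
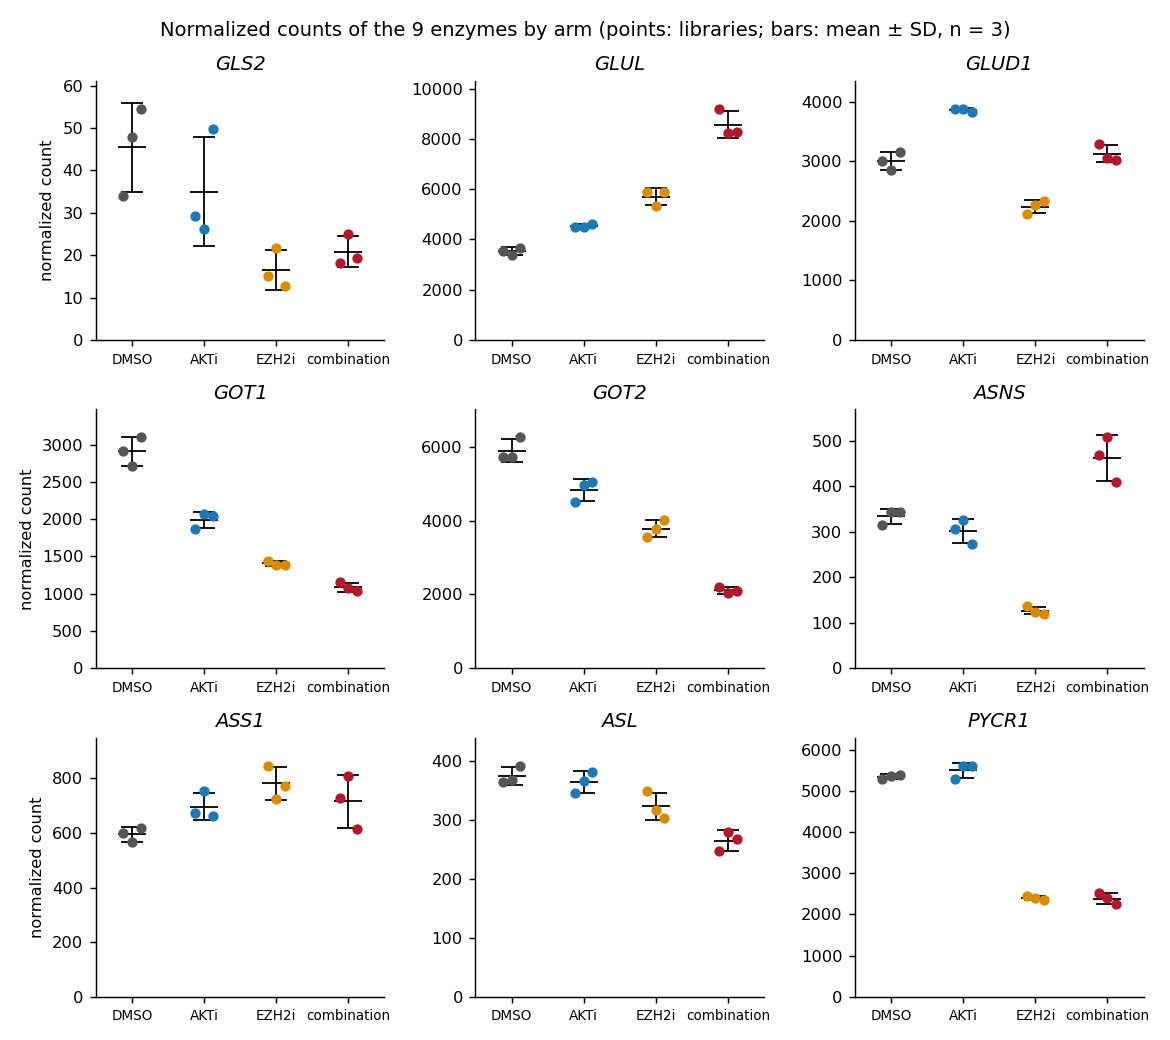
Normalized counts (y axis, each panel from 0) of the 9 enzymes in the 4 arms (x axis), with 1 point per library and bars for the mean ± SD of 3 libraries. GLUL climbs from arm to arm to 8233–9199 in the combination, GOT1 and GOT2 step down, and ASNS is lowest in EZH2i (120–136) and highest in the combination (409–507).

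The levels of the 9 enzymes spanned a wide range. Scaled to gene length and library total (RPKM), DMSO cells held PYCR1 at 113 ± 1.01 (SD, n = 3), followed by GOT2 at 95.9 ± 4.19. GOT1 (52.9 ± 3.05) and GLUD1 (52.3 ± 2.18) came next and overlapped. GLUL at 23.9 ± 0.83, ASS1 at 11.96 ± 0.447, ASL at 7.19 ± 0.225 and ASNS at 4.60 ± 0.214 RPKM lay below them without overlap, and GLS2 was scarce at 0.672 ± 0.152 RPKM. In the combination the top of this order changed. GLUL was the most abundant at 59.0 ± 3.44 RPKM, and its range overlapped that of GLUD1 at 55.2 ± 2.29, which in turn overlapped that of PYCR1 at 51.4 ± 2.70. GOT2 had dropped to 34.8 ± 1.35 and GOT1 to 20.0 ± 1.01 RPKM, and ASNS at 6.44 ± 0.687 now lay above ASL at 5.16 ± 0.353.

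**Figure D2:**
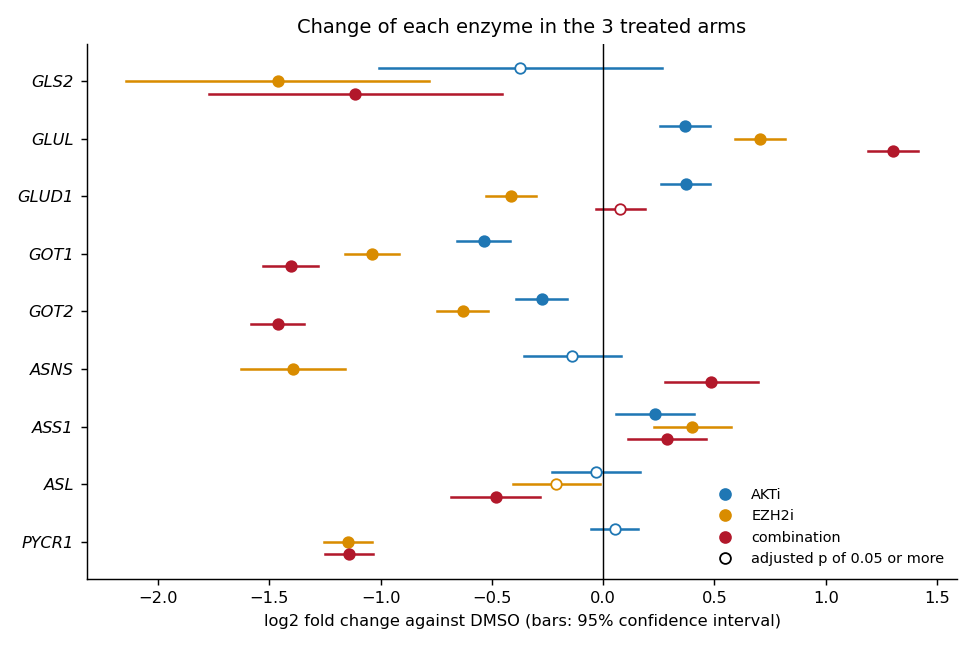
Log2 fold change against DMSO (x axis) of each enzyme (y axis) in the AKTi, EZH2i and combination arms, with 95% confidence intervals from edgeR. GOT1 and GOT2 lie left of 0 in all 3 arms and GLUL right of 0, whereas ASNS is at -1.39 with EZH2i and 0.49 in the combination.

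Glutamine synthetase rose with each agent and rose furthest with both. GLUL (chr1:182381704-182392206, minus strand, hg38) had normalized counts of 3535, 3370 and 3674 in DMSO (replicates A, B and C), 4478, 4478 and 4604 with AKTi, 5898, 5323 and 5892 with EZH2i, and 9199, 8233 and 8286 in the combination. No arm overlapped another. The log2 fold change against DMSO was 0.37 ± 0.06 (SE) with AKTi (edgeR adjusted p = 1.1e-06), 0.70 ± 0.06 with EZH2i (adjusted p = 1.0e-13) and 1.30 ± 0.06 in the combination (adjusted p = 7.6e-22). The combination also exceeded AKTi alone by 0.93 and EZH2i alone by 0.60.

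The glutaminase GLS2 fell with EZH2i and in the combination. The gene (chr12:56470944-56488414, minus strand) was counted only 14 to 69 times per library, with normalized counts of 33.9, 47.8 and 54.6 in DMSO, 29.2, 26.2 and 49.7 with AKTi, 15.2, 21.8 and 12.7 with EZH2i, and 18.0, 25.0 and 19.4 in the combination. The AKTi libraries overlapped DMSO, and all EZH2i and combination libraries lay below it. Its log2 fold change was -1.46 ± 0.34 with EZH2i (edgeR adjusted p = 0.00026) and -1.11 ± 0.32 in the combination (adjusted p = 0.0026). With AKTi it was -0.37 with a 95% interval of -1.01 to 0.26, which was not called (adjusted p = 0.36). GLS2 is overlapped on the opposite strand by SPRYD4, which was counted 12236 times over the 12 libraries against 355 for GLS2. SPRYD4 fell as well. Its normalized counts were 1413 ± 75.8 in DMSO, 1124 ± 51.5 with AKTi, 855 ± 55.3 with EZH2i and 661 ± 26.5 with both. The SPRYD4 mean was thus lowest in the combination. GLS2 had its lowest mean with EZH2i, in libraries that overlapped those of the combination. The strand setting of the counting is not given in the sources used here, and the part of SPRYD4 reads in the GLS2 values was not tested.

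In the combination GLS2 was lower while GLUL, which catalyzes the opposing reaction, was higher. Within single libraries, where scaling between libraries plays no part, the log2 ratio of GLUL to GLS2 counts was 6.31 ± 0.35 (SD, n = 3) in DMSO, 7.07 ± 0.47 with AKTi, 8.47 ± 0.48 with EZH2i and 8.70 ± 0.32 in the combination. EZH2i and combination libraries lay above all DMSO libraries (exact permutation p = 0.1 each, two-sided, the smallest that 3 against 3 libraries allow), and AKTi libraries overlapped them (exact permutation p = 0.2).

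Glutamate dehydrogenase responded to the agents in opposite directions. GLUD1 (chr10:87050486-87094866, minus strand) had normalized counts of 3011, 2852 and 3153 in DMSO, 3871, 3881 and 3832 with AKTi, 2119, 2266 and 2330 with EZH2i, and 3293, 3057 and 3027 in the combination. AKTi libraries all lay above DMSO and EZH2i libraries all below it, and the combination overlapped DMSO. The log2 fold change was 0.37 ± 0.05 with AKTi (edgeR adjusted p = 6.5e-07), -0.41 ± 0.06 with EZH2i (adjusted p = 3.1e-08) and 0.08 in the combination, where the 95% interval ran from -0.03 to 0.19 (adjusted p = 0.21). The last value depended on scaling: TMM placed the median gene at 0.06 in the combination against DMSO, library size alone at 0.26 and upper-quartile scaling at 0.25. GLUD1 was called higher under the last pair, at 0.27 and 0.26, close to the shift of the median gene. It was also called with at least 10 counts in every library (0.14, edgeR adjusted p = 0.014), where the median gene was at 0.01. SHLD2 overlaps GLUD1 on the opposite strand with 20.8% as many counts and fell in every treated arm, from a normalized count of 921 ± 62.3 to 428 ± 35.8 in the combination, and its part in the GLUD1 values was not tested. The related gene GLUD2 was scarce at 0.362 ± 0.0395 RPKM in DMSO and was not called in the combination (log2 fold change -0.34, adjusted p = 0.50).

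Both aspartate transaminases, which form the core of the malate-aspartate shuttle, fell in every treated arm. GOT1 (chr10:99396870-99431569, minus strand), the cytosolic form, had normalized counts of 2913, 2713 and 3098 in DMSO, 1871, 2066 and 2039 with AKTi, 1444, 1389 and 1390 with EZH2i, and 1151, 1071 and 1033 in the combination. GOT2 (chr16:58707131-58734357, minus strand), the mitochondrial form, had 5709, 5719 and 6257 in DMSO, 4498, 4955 and 5056 with AKTi, 3559, 3768 and 4012 with EZH2i, and 2207, 2026 and 2097 in the combination. For neither gene did any of the 4 arms overlap, and the order of arms was the same for both. GOT1 changed by -0.54 ± 0.06 on the log2 scale with AKTi (edgeR adjusted p = 1.9e-09), -1.04 ± 0.06 with EZH2i (adjusted p = 1.7e-17) and -1.40 ± 0.06 in the combination (adjusted p = 1.2e-21). GOT2 changed by -0.28 ± 0.06 with AKTi (adjusted p = 0.00011), -0.63 ± 0.06 with EZH2i (adjusted p = 2.8e-12) and -1.46 ± 0.06 in the combination (adjusted p = 7.6e-23). With each agent alone the log2 fold change of the cytosolic form was the larger, and in the combination the values lay within their SE of each other. The log2 ratio of GOT1 to GOT2 counts within libraries was -1.02 ± 0.05 in DMSO, -1.28 ± 0.03 with AKTi, -1.42 ± 0.11 with EZH2i and -0.96 ± 0.05 in the combination. The single-agent libraries lay below all DMSO libraries (exact permutation p = 0.1 each), and the combination overlapped DMSO (exact permutation p = 0.3).

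**Figure D3:**
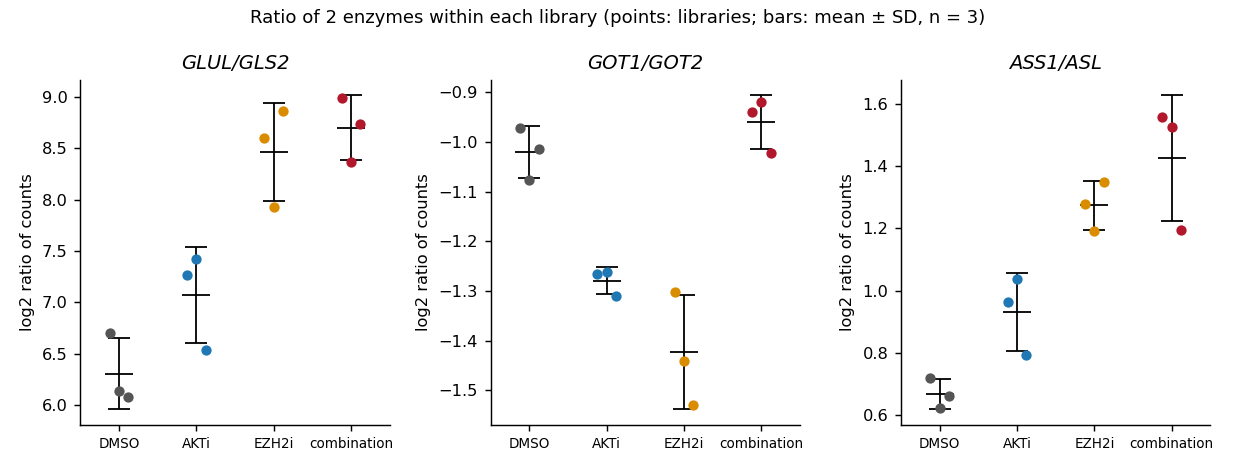
Log2 ratio of the counts of paired enzymes within each library (y axis, not from 0) by arm (x axis), with 1 point per library and bars for the mean ± SD of 3 libraries. GLUL/GLS2 rises to 8.70 in the combination and ASS1/ASL to 1.43, and GOT1/GOT2 drops with each single agent and lies at -0.96 in the combination beside -1.02 in DMSO.

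Asparagine synthetase fell with EZH2i alone and rose in the combination. ASNS transfers the amide of glutamine to aspartate and is widely known as a target of ATF4, the transcription factor of the amino acid response. ASNS (chr7:97852118-97872542, minus strand) had normalized counts of 315, 343 and 344 in DMSO, 307, 326 and 272 with AKTi, 136, 124 and 120 with EZH2i, and 468, 507 and 409 in the combination. All EZH2i libraries lay below every other library, and all combination libraries lay above. AKTi without EZH2i changed ASNS by -0.14 ± 0.11 on the log2 scale, which was not called (edgeR adjusted p = 0.32), whereas EZH2i lowered it by -1.39 ± 0.12 (adjusted p = 4.2e-13). Adding AKTi to EZH2i raised it by 1.88 ± 0.11 (adjusted p = 1.4e-16), so that the combination exceeded DMSO by 0.49 ± 0.10 (adjusted p = 6.4e-05). Genes named as ASNS pseudogenes held 27.1% as many counts as ASNS, and the main one, ASNSP1, had normalized counts of 55.1 ± 15.7 in DMSO, 68.0 ± 11.96 with AKTi, 31.5 ± 1.81 with EZH2i and 169 ± 21.8 with both. Its mean was lowest and highest in the same arms as that of ASNS, with AKTi above DMSO where ASNS lay below it. Reads of such copies may have been split between them, which was not tested.

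A promoter window of ASNS is shown because it holds the letters of the composite element that ATF4 and C/EBP factors are known to bind. RefSeq promoter windows (GRCh38.p14, 250 bases before to 50 after each start) were given for 8 of the 9 enzymes, 11 windows in all. These windows were searched on both strands for TGATGNAA. They were also searched for the E-box CACGTG, for the hypoxia core letters ACGTG (contained in CACGTG) and GCGTG, and for the forkhead letters GTAAACA. TGATGNAA was found at ASNS, on the coding strand with its first base 68 bases before the start, and at GOT1, on the opposite strand. The E-box, which MYC and related factors are known to bind, was found at ASS1 only. ASNS and ASS1 each had 2 windows, and these matches were absent from the other window of each gene. Of 35116 windows, 3.62% held TGATGNAA and 7.26% held the E-box. The stretches below read 5′ to 3′ on the gene's strand with the match in capitals, ASNS from chr7:97872458-97872487 (minus strand), GOT1 from chr10:99430804-99430833 (minus strand) and ASS1 from chr9:130444878-130444907 (plus strand).
ASNS: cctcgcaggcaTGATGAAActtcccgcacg
GOT1: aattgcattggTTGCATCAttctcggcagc
ASS1: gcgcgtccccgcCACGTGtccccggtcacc
ASNS and GOT1, which share these letters, both fell with EZH2i (-1.39 and -1.04 on the log2 scale) and moved apart in the combination (0.49 and -1.40). GCGTG was found in the windows of GLUL, GLUD1, GOT1, GOT2 and ASNS (36.5% of all windows), ACGTG at GOT2 and ASS1 (21.4%), and GTAAACA at none of the members (3.42%). The matches are a description of these windows, and binding was not measured in these libraries.

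The enzymes that build arginine diverged. ASS1 (chr9:130444929-130501274, plus strand) joins citrulline to aspartate and had normalized counts of 599, 566 and 620 in DMSO, 673, 753 and 662 with AKTi, 847, 726 and 772 with EZH2i, and 727, 809 and 614 in the combination. AKTi and EZH2i libraries all lay above DMSO, and combination replicate C fell within the DMSO range. ASS1 rose by 0.23 ± 0.09 on the log2 scale with AKTi (edgeR adjusted p = 0.029), by 0.40 ± 0.09 with EZH2i (adjusted p = 0.00010) and by 0.29 ± 0.09 in the combination (adjusted p = 0.0032). The AKTi call was lost without DMSO replicate A (0.24, adjusted p = 0.057), DMSO replicate B (0.18, adjusted p = 0.16) or AKTi replicate B (0.15, adjusted p = 0.25), and with DESeq2 (adjusted p = 0.051). The combination call was lost without DMSO replicate B (0.21, adjusted p = 0.051) or combination replicate B (0.19, adjusted p = 0.066).

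ASL (chr7:66075798-66093558, plus strand), which cleaves argininosuccinate to arginine and fumarate, had normalized counts of 364, 368 and 392 in DMSO, 345, 367 and 382 with AKTi, 349, 318 and 303 with EZH2i, and 247, 280 and 268 in the combination. AKTi overlapped DMSO, and the combination lay below every other library. ASL fell by 0.48 ± 0.10 in the combination (edgeR adjusted p = 4.5e-05). With EZH2i the log2 fold change of -0.21 (95% interval -0.41 to -0.01) narrowly missed the threshold (adjusted p = 0.058). It passed when DMSO replicate B (-0.27), AKTi replicate A (-0.24), B (-0.26) or C (-0.26), or EZH2i replicate A (-0.29) was left out. Within libraries, the log2 ratio of ASS1 to ASL counts was 0.67 ± 0.05 in DMSO, 0.93 ± 0.12 with AKTi, 1.27 ± 0.08 with EZH2i and 1.43 ± 0.20 in the combination. Every treated library lay above every DMSO library (exact permutation p = 0.1 for each arm, the smallest possible).

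PYCR1, a pyrroline-5-carboxylate reductase, fell in both arms that received tazemetostat. The gene (chr17:81932384-81942412, minus strand) had normalized counts of 5277, 5355 and 5391 in DMSO, 5280, 5610 and 5600 with AKTi, 2452, 2405 and 2339 with EZH2i, and 2522, 2387 and 2250 in the combination. Libraries with and without tazemetostat did not overlap, and AKTi overlapped DMSO. The log2 fold change was -1.15 ± 0.05 with EZH2i (edgeR adjusted p = 3.6e-20) and -1.14 ± 0.05 in the combination (adjusted p = 1.1e-20). Adding AKTi changed it by 0.05 in the absence of EZH2i (95% interval -0.05 to 0.16, adjusted p = 0.46) and by 0.00 in its presence (95% interval -0.11 to 0.11, adjusted p = 0.97). PYCR3, an isozyme listed with the surrounding pathway, fell by 1.33 with EZH2i (adjusted p = 2.9e-19) and by 2.12 in the combination (adjusted p = 3.0e-25), from 40.8 ± 0.683 RPKM in DMSO to 9.37 ± 1.00.

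To examine what each agent added to the other, the combination was compared with the single agents. Against AKTi, 2 enzymes were higher (GLUL and ASNS) and 5 lower (GLUD1, GOT1, GOT2, ASL and PYCR1), beside 64.2% of all genes called (32.1% in each direction). GLS2 was at -0.74 and just missed the threshold (edgeR adjusted p = 0.053). It was called when AKTi replicate A (-0.91) or B (-0.93), EZH2i replicate A (-0.80), B (-0.75) or C (-0.75), or combination replicate B (-0.90) was left out. Against EZH2i, 3 were higher (GLUL, GLUD1 and ASNS) and 3 lower (GOT1, GOT2 and ASL), beside 46.7% of all genes (21.1% higher and 25.7% lower). GOT2 fell by 0.83 ± 0.06 (adjusted p = 9.4e-15) and GOT1 by 0.36 ± 0.06 (adjusted p = 6.2e-06). GLUD1 rose by 0.49 ± 0.05 (adjusted p = 1.7e-09). ASL fell by 0.27 (adjusted p = 0.023), a call lost without EZH2i replicate A (-0.25, adjusted p = 0.062) or combination replicate A (-0.22, adjusted p = 0.11) and under library-size or upper-quartile scaling (-0.22 and -0.21).

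Whether the agents acted independently on the log2 scale was tested by the interaction, the effect of AKTi in the presence of EZH2i minus its effect in the absence of EZH2i. It was positive for 2 enzymes and negative for 2, beside 28.2% of all genes called (10.7% positive and 17.5% negative). ASNS had an interaction of 2.02 ± 0.16 (edgeR adjusted p = 1.0e-12), with the single-agent changes summing to -1.53 and the combination at 0.49. GOT2 had -0.56 ± 0.08 (adjusted p = 1.2e-06), with a sum of -0.91 and a combination value of -1.46. GLUL at 0.23 ± 0.08 (adjusted p = 0.024) exceeded its sum of 1.07, and ASS1 at -0.35 ± 0.12 (adjusted p = 0.029) fell short of its sum of 0.63.

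The ASNS and GOT2 interactions were called with every library left out in turn, at 1.94 to 2.11 and -0.63 to -0.48. The GLUL call was lost without DMSO replicate A (0.22) or C (0.20), AKTi replicate A (0.20), EZH2i replicate B (0.18) or combination replicate A (0.18). The ASS1 call was lost without DMSO replicate B (-0.28), AKTi replicate B (-0.26), EZH2i replicate A (-0.31) or C (-0.32), or combination replicate C (-0.25). Of the others, PYCR1 at -0.05 (95% interval -0.20 to 0.10) had the value closest to 0. GOT1 at 0.17 (95% interval -0.0007 to 0.35) was not called, and was called without DMSO replicate B (0.25, adjusted p = 0.041). The 95% intervals were -0.04 to 0.28 for GLUD1, -0.52 to 0.04 for ASL and -0.25 to 1.69 for GLS2.

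**Figure D4:**
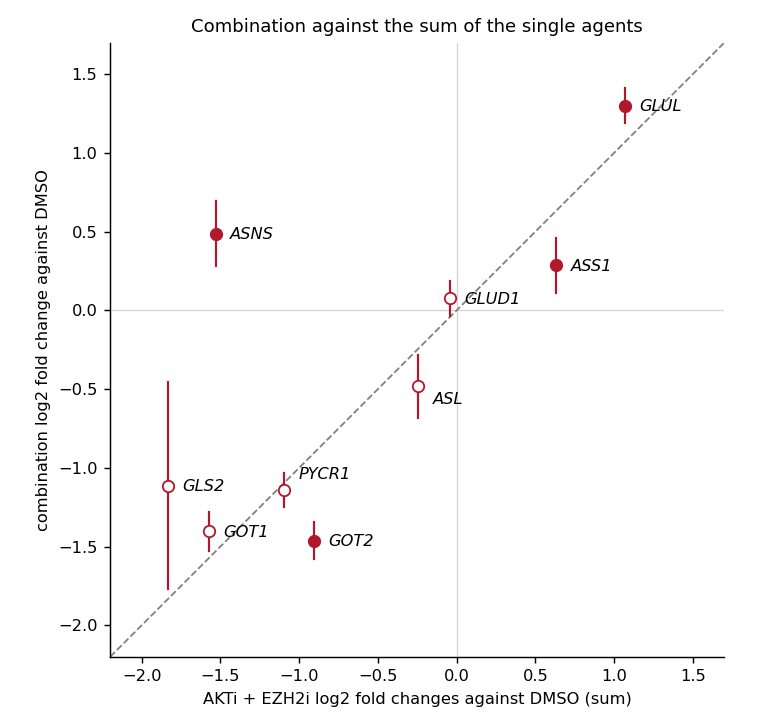
Log2 fold change of the combination against DMSO (y axis) and the sum of the AKTi and EZH2i log2 fold changes (x axis) for each enzyme, with the diagonal marking equality. ASNS stands far above the diagonal (sum -1.53, combination 0.49), GOT2 lies below it (-0.91 and -1.46) and PYCR1 lies on it (-1.09 and -1.14).

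The surrounding pathway was described by 65 further genes in 8 lists, of which 53 passed the filter. In the combination 14 rose, 32 fell and 7 were not called against DMSO, beside 38.0% of all genes higher and 35.2% lower. Their median log2 fold change was -0.52 against 0.06 over all genes. AKTi raised 12 and lowered 18 (20.6% and 21.9% of all genes), and EZH2i raised 14 and lowered 26 (32.6% and 31.5% of all genes). The lists below are described by their counts, to be read beside these shares, and nothing is particular to a list from its count alone.

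A list of 7 genes held malate-aspartate shuttle partners of GOT1 and GOT2, together with the glutamate carriers SLC25A22 and SLC25A18 from outside the shuttle. Of these 7 genes, 6 fell in the combination and none rose (median -1.19), where 35.2% of all genes fell. SLC25A18 was not called (0.56). MDH1, the cytosolic malate dehydrogenase, fell by 1.51 ± 0.06 (edgeR adjusted p = 7.0e-22) and MDH2, its mitochondrial counterpart, by 1.19 ± 0.05 (adjusted p = 1.7e-21). Like GOT2, MDH2 had a negative interaction (-0.70, adjusted p = 1.5e-09), as did the carrier genes SLC25A22 (-0.69) and SLC25A11 (-0.29). That of MDH1 was not called (-0.12, adjusted p = 0.37). Unlike GOT2, MDH2 was not called with AKTi alone (0.02, adjusted p = 0.82). The glutamate carrier SLC25A22 fell by 1.80 ± 0.08 and the aspartate-glutamate carrier SLC25A13 by 0.95 ± 0.08. Enzymes that take the amide nitrogen of glutamine for biosynthesis also fell, 8 of 10 against 2 that rose (median -1.22). CTPS1, which makes CTP, went from a normalized count of 2168 ± 146 in DMSO to 371 ± 5.88 in the combination, a log2 fold change of -2.53 ± 0.07 (adjusted p = 3.4e-27). GFPT2, of the hexosamine pathway, rose by 2.06 ± 0.46 (adjusted p = 0.00016) from only 4 to 12 counts per DMSO library.

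Of 10 other enzymes that convert glutamate to 2-oxoglutarate or back, 7 fell in the combination and none rose. AADAT, the aminoadipate transaminase, fell by 1.17 ± 0.06 (edgeR adjusted p = 4.9e-19). GPT2, the mitochondrial alanine transaminase, had a mean normalized count of 3299 ± 216 in DMSO, 2993 ± 156 with AKTi, 1259 ± 25.8 with EZH2i and 2659 ± 34.2 in the combination. As with ASNS, EZH2i lowered it (-1.38, adjusted p = 1.5e-21) and the addition of AKTi raised it (1.09, adjusted p = 3.5e-18), with an interaction of 1.22. PSAT1, the phosphoserine transaminase (interaction 1.93), and BCAT1, the cytosolic branched-chain transaminase (interaction 2.19), were likewise lowered by EZH2i (-1.98 and -2.23) and raised by the addition of AKTi (1.41 and 2.11), and are named after their values were seen. Unlike ASNS, none of the 3 rose above DMSO in the combination, where GPT2 was at -0.29, PSAT1 at -0.57 and BCAT1 at -0.12. The GPT2 call in the combination was lost under library-size (-0.10) and upper-quartile scaling (-0.11).

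Of 8 arginine and urea cycle genes, 6 rose in the combination and 1 fell (median 1.57), where 38.0% of all genes rose. The 1 that fell, DDAH1, was at -0.16 (edgeR adjusted p = 0.026). Its call was lost with at least 10 counts in every library (-0.09), without DMSO replicate C (-0.12) or combination replicate B (-0.11), and under library-size and upper-quartile scaling, where it was at 0.04 and 0.03. NOS3, endothelial nitric oxide synthase, which consumes arginine, had mean normalized counts of 56.3 ± 11.7 in DMSO, 131 ± 19.7 with AKTi, 385 ± 29.7 with EZH2i and 856 ± 16.4 in the combination, a log2 fold change of 3.91 ± 0.12 (edgeR adjusted p = 9.7e-26). OTC, which supplies citrulline in liver, had 0 counts in all 12 libraries. Among 4 asparagine genes 2 rose and 2 fell. ASPG, an asparaginase, rose by 3.54 ± 0.52 (adjusted p = 1.8e-07) from a normalized count of 3.51 ± 2.14 in DMSO to 39.8 ± 13.3, and ASRGL1, another, fell by 0.52 ± 0.11. ASNSD1, an ASNS-related gene, fell by 1.26 ± 0.07 (adjusted p = 1.4e-17). It was close to its EZH2i level (-0.04, adjusted p = 0.68), so it lacked the ASNS rise. Its interaction was positive like that of ASNS (0.64, adjusted p = 1.3e-05), with AKTi alone at -0.68.

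Of 6 other proline genes, 5 fell in the combination with PYCR1 and 1 rose (median -0.69). ALDH18A1, which converts glutamate to the precursor that PYCR1 reduces, fell by 0.79 ± 0.06 (edgeR adjusted p = 3.2e-15). P4HA2, a prolyl hydroxylase subunit that acts on collagen, rose by 0.89 ± 0.12 (adjusted p = 5.9e-08). Other users of glutamate were mixed, with 3 of 7 higher and 2 lower. GCLM, the modifier subunit of the first enzyme of glutathione synthesis, fell by 0.68 ± 0.07 (adjusted p = 1.0e-10). ABAT, which degrades GABA, rose by 1.05 with AKTi and by 1.51 with EZH2i but only by 0.83 in the combination, with an interaction of -1.73 (adjusted p = 7.2e-15).

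**Figure D5:**
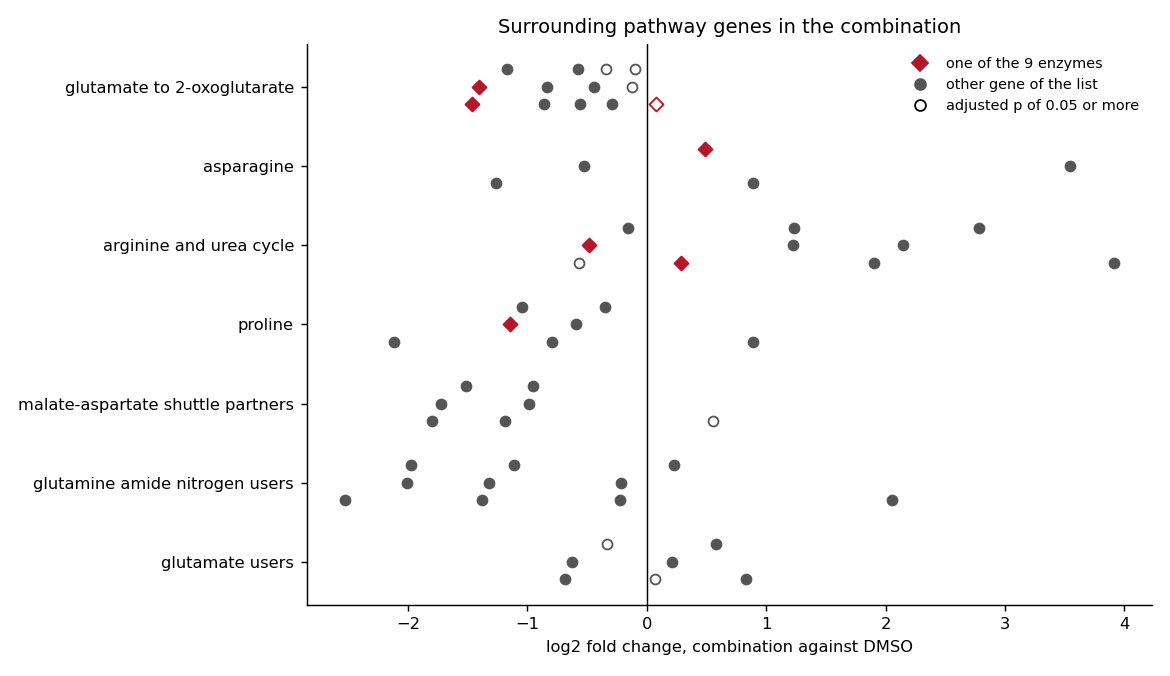
Log2 fold change of the combination against DMSO (x axis) for tested genes of the pathway lists (y axis), with circles for the surrounding genes, diamonds for those of the 9 enzymes that belong to these lists, and filled symbols for genes called by edgeR. Among the circles, the malate-aspartate list (with glutamate carriers) and the glutamine amide users sit mostly left of 0 (medians -1.19 and -1.22). The arginine and urea cycle genes sit mostly right (median 1.57).

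Among 12857 genes compared over the 12 libraries, the gene closest to each enzyme was named by the root mean square difference of centred log2 CPM, where 0 would be an identical pattern. PYCR1 was closest to TRMT61A (0.0515), GOT1 to VDAC2 (0.0625), ASL to MGAT5 (0.0628), GOT2 to PARP1 (0.0662), GLUL to FAM102A (0.0726) and ASS1 to SLC39A11 (0.0805). GLUD1 was closest to STEAP1 (0.101). ASNS had no such near neighbour and was closest to STC2 (0.144) and to the glutamine transporter gene SLC1A5 (0.167). GLS2, with its few counts, was closest to TMEM268 (0.293). Among the enzymes themselves, GOT1 and GOT2 were the most alike (0.248), and GLUL and GOT1 the least (1.67).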

How the data were processed

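C4.2B RNA was sequenced in 12 libraries. The authors aligned reads to hg38 with STAR and counted them on genes with HTSeq. Versions, gene annotation and strand setting are not given in the sources used here. The deposited counts are whole numbers. The deposited normalized values (signal) are the authors' DESeq2-normalized counts and were checked to be the counts over a single scaling factor for each library (0.837 to 1.34).

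Counts were analysed in R 4.3.3 with edgeR 4.0.16 (filterByExpr with minimum count 10 and minimum total 15, TMM, quasi-likelihood test, 1 mean per arm over 12 libraries, Benjamini-Hochberg over 16646 genes at 0.05). SE was the absolute log2 fold change divided by the square root of F. RPKM used the deposited gene lengths and likeness log2 CPM (prior count 2). Ratios were compared by exact permutation, and motifs were searched in Python 3.11.15. Only the edgeR and DESeq2 comparisons were tested on simulated counts. Totals of 14133755 to 22276417 counts leave counting error small except for GLS2 and other low genes.

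The enzymes, lists and motifs were chosen with earlier results of these data known. All 9 enzymes are named, with partners and isozymes (some results are not reported here) and, per list, the genes with the highest and the lowest log2 fold change among those called in the combination against DMSO, whatever their sign. Alternatives were DESeq2 1.42.0, library-size and upper-quartile scaling, filters of at least 1 count in total or 10 in every library, a replicate block, only the 6 libraries compared and each library left out.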

Additional observations from a re-analysis of the deposited data

Results flagged for a closer look

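The effect of AKTi differed with and without EZH2i for 4 of the 9 enzymes by the edgeR interaction test, beside 28.2% of all genes tested. As given above, the GLUL and ASS1 calls were lost when certain single libraries were left out. The difference on the log2 scale was 2.02 for ASNS, -0.56 for GOT2, -0.35 for ASS1 and 0.23 for GLUL. ASNS changed by -0.14 with AKTi alone and by 1.88 when AKTi was added to EZH2i, with all 3 combination libraries above all 3 EZH2i libraries. For GOT2 these effects were -0.28 and -0.83, for GLUL 0.37 and 0.60, and for ASS1 0.23 and -0.11. Groups of 3 libraries are too small for a test of single outlying libraries.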

How the results depend on the processing

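The number of enzymes called in each comparison stayed within 1.5 times the value given under every alternative. With a library left out it ranged from 4 to 5 for AKTi, 8 to 9 for EZH2i, 7 to 8 for the combination against DMSO and against AKTi, 5 to 6 against EZH2i and 3 to 4 for the interaction. Under other settings, 357 values of the enzymes kept direction and call, 4 gained and 5 lost the call, and 3 reversed. With a library left out, 608 values kept both, 12 gained and 17 lost the call, and 11 reversed. All reversed values of the enzymes were uncalled and near 0: ASL with AKTi (0.0268 and 0.0263 under library-size and upper-quartile scaling, -0.0887 to 0.000771 with a library left out), PYCR1 in the combination against EZH2i (-0.0220 with at least 1 count in total, -0.0382 to 0.0396), GLUD1 in the combination against DMSO (-0.00147 without DMSO replicate B, up to 0.0966) and ASS1 in the combination against AKTi (-0.0471 to 0.147, and called at 0.19 under library-size scaling). DDAH1 of the arginine list fell by 0.16 in the combination and was at 0.0370 and 0.0251 under library-size and upper-quartile scaling. These scalings raised the median gene and turned the split of all genes called in the combination from 6320 higher and 5866 lower to 7574 and 4749 (library size) or 7502 and 4821 (upper quartile). GLUD1 was also called in the combination with at least 10 counts in every library (0.14).

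With a replicate block, the enzymes called numbered 5, 8, 8, 7, 6 and 4 in the order above, the same as without it, and it changed no call. Same-letter libraries did not deviate together (r from -0.06 to 0.07, 0 of 18 pairs over 0.1), and 4 of 12 libraries correlated best with their own letter, so the letters were not taken to pair the libraries. The GLUL interaction was not called with at least 1 count in total (0.21), and the ASL call against EZH2i was lost with only the 6 libraries compared (-0.25). Depth limits GLS2, GLUD2, ASPG and GFPT2.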
